A study of Mus musculus with 9 samples.

Results

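The WAVE complex is the switch that lets a cell build branched actin at its edge, and the 10 genes described here cover it and its partners. They were taken by gene symbol from a table of 16509 genes and comprise the WAVE subunits Nckap1, Wasf2, Cyfip1, Abi1 and Brk1, the GTPase Rac1, the Arp2/3 subunits Actr2, Actr3 and Arpc2, and the actin recycling protein Cap1. All 10 symbols matched 1 row each, and all 10 passed the filter on low counts. MC38 is a mouse colon carcinoma cell line, and its messenger RNA was sequenced in 9 libraries with 3 per group. Ctrl cells are labelled with the solvent DMSO, although the study's text gives PBS for its RNA-seq controls. Cu-Cys cells received copper joined to cystine. Cadict cells received a nanodrug of the same copper and cystine that also carries glucose oxidase and the EGFR-binding peptide GE11. This peptide is held by a PEG linker on a DSPE anchor. No dose or time of treatment is given for these libraries in the sources used here, and the labels do not say whether the replicates came from separate cultures. The study's methods describe its cell experiments in general as repeated independently and its n as biological replicates, without a statement on these cultures, and every p-value below measures the spread between these libraries, which may in part be technical.

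In resting cells the WAVE complex is held inactive. Rac1 in its GTP-bound form binds it through Cyfip1, the scaffold pair of Cyfip1 and Nckap1 opens, and the WAVE protein itself, here Wasf2, frees a tail that activates Arp2/3. Arp2/3 then starts a new actin filament on the side of an old one, which gives the sheet-like protrusions of moving cells. In disulfidptosis, a form of cell death caused by disulfide bonds in actin proteins when cystine-loaded cells lack glucose, the Rac1, WAVE and Arp2/3 route is known to promote the death, and Nckap1 is known as a gene whose loss protects cells. Cadict was designed to bring about this death together with cuproptosis. Only transcripts are described here, and whether the proteins or their complexes changed with them was not tested.

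The promoters of Arpc2, Actr3 and Wasf2 are shown because the first pair rose and Wasf2 fell with Cadict on every scale tried (values below). RefSeq windows on GRCm38.p6 that run from 250 bases before the annotated start to 50 bases from it matched 7 of the 10 members, and Nckap1, Cyfip1 and Rac1 had no entry. Capitals mark the letters CGGAAGT (the core of ETS factor sites), GCGCATGC (a core of the NRF1 site) and CCAAT, each searched on both strands. In Arpc2 the 2 NRF1 matches overlap each other on opposite strands.
Arpc2, chr1:74236267-74236566, + strand: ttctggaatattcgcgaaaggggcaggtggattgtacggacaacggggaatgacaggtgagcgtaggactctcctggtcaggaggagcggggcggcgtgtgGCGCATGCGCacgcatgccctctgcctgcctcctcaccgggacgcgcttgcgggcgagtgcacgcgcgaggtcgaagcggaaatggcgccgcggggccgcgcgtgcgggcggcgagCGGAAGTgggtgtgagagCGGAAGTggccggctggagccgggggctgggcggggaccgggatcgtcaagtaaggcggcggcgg
Actr3, chr1:125435678-125435977, - strand: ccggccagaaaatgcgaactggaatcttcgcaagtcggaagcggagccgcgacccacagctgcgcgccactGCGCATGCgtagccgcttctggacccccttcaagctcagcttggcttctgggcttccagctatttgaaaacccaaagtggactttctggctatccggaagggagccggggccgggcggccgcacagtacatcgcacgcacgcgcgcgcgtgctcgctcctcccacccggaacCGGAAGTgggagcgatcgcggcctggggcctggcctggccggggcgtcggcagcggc
Wasf2, chr4:133130383-133130682, + strand: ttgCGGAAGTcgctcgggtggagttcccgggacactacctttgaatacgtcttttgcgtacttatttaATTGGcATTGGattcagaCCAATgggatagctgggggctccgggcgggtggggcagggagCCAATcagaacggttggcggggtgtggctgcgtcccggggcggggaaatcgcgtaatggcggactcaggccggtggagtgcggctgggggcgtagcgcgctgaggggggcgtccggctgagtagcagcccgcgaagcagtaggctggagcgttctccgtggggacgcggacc

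The ETS letters stood in the windows of 4 of the 7 members (Wasf2, Actr2, Actr3 and Arpc2), against 7.21% of the 27018 genes with a window. The NRF1 letters stood in 3 (Abi1, Actr3 and Arpc2), against 3.05% of genes, and CCAAT in 4 (Wasf2, Abi1, Actr2 and Cap1), against 41.1%. The letters TATAAA were in the windows of 0 of the 7 and of 15.7% of genes. Actr3 and Arpc2, which rose, shared the ETS and NRF1 letters and lacked CCAAT. Wasf2, which fell, held the ETS letters and 4 copies of CCAAT. Over the other windows the letters did not follow the direction of change. Abi1, Actr2 and Cap1 passed as higher with Cadict on the TMM scale and held CCAAT. Brk1 also passed as higher and held none of the marked letters. The shares over genes cover every gene with a window, expressed here or not. No share among the genes tested was counted, so the counts do not show an excess over other expressed genes. These matches describe the sequence only and are not binding sites.

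The 9 libraries held 17905771 to 18293056 expected counts each, so depth was nearly equal. The make-up of the Cadict libraries was not: their 100 most abundant genes took 30.4% ± 0.668 of counts (SD, n = 3), against 17.3% ± 0.112 in Ctrl and 18.0% ± 0.136 in Cu-Cys. This left the other genes a smaller part of a Cadict library. For part of the genes, whether they read as higher or lower depended on the scale. How far the 100 most abundant genes account for this was not tested. CPM, counts set to a common library size that was adjusted by TMM factors, put the median gene at a log2 fold change of -0.13 in Cadict against Ctrl, whereas library totals put it at -1.08 and the deposited TPM at -1.13. Changes are given on the TMM scale, and a member whose direction turns on another scale is said to do so. Cadict replicate 2 also stood apart, with a chi-square per degree of freedom of 14.7 and 23.1 against its fellow replicates, which differed from each other by 3.63. The epithelial markers Epcam, Krt8, Krt18, Cldn7 and Vil1 were below 1 TPM in every library. Krt19 averaged 2.25 TPM in Ctrl, 2.01 in Cu-Cys and 8.96 in Cadict, and Cdh1 2.52, 1.47 and 2.70. The 7 epithelial markers in the table summed to 4.22 to 6.24 TPM in Ctrl, at most 3.95 in Cu-Cys and 11.6 to 13.3 in Cadict. Leukocyte and endothelial markers summed to at most 0.08 and 1.20 TPM. Fibroblast markers summed to 19.8 to 22.9 TPM in Ctrl, 10.04 to 10.3 in Cu-Cys and 2.45 to 3.23 in Cadict. The part of these markers in the results was not tested.

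With Cadict, Cyfip1 and Wasf2 fell and the Arp2/3 subunits Arpc2 and Actr3 rose, and these directions held on every scale tried. Cyfip1 transcripts dropped to 0.255 of their Ctrl level on the TMM scale, and Arpc2 transcripts reached 3.66-fold. In edgeR's quasi-likelihood test, with p-values adjusted by Benjamini-Hochberg, 8 of the 10 members passed an adjusted p of 0.05 as higher in Cadict than in Ctrl and 2 as lower, beside 40.6% and 47.1% of the 11949 genes tested (87.7% in either direction). At the study's threshold, a fold change of at least 2 with an adjusted p of at most 0.001, 4 were called higher (Arpc2, Actr3, Cap1 and Actr2) and 1 lower (Cyfip1), beside 20.7% and 27.1% of all genes (47.8% in either direction). The median log2 fold change of the members was 0.90. On library totals, 3 members passed as higher and 4 as lower, and on TPM 2 and 7, beside 2161 and 8730 genes and 1406 and 9516 genes of the 11949. Without Cadict replicate 2 the counts stayed at 8 and 2.

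**Figure D1:**
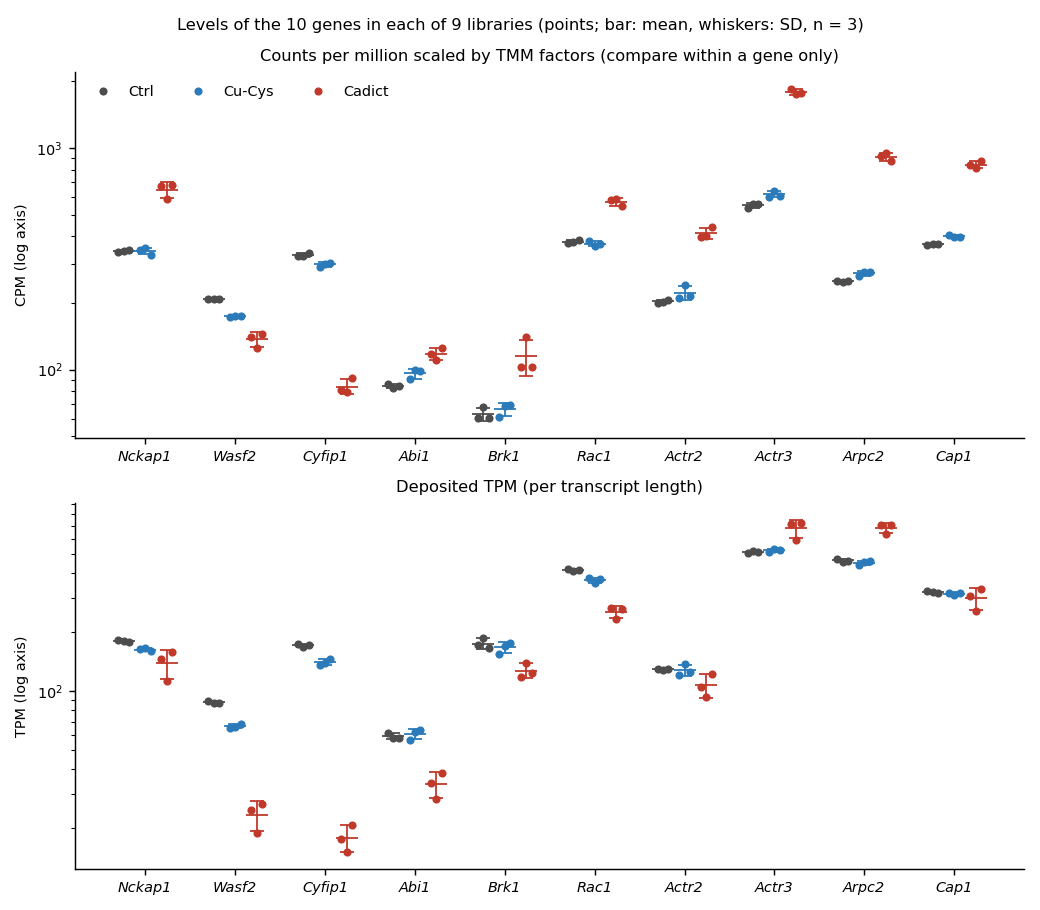
Levels of the 10 genes in each library on log axes, as TMM-scaled CPM (upper panel) and deposited TPM (lower panel), with grey points for Ctrl, blue for Cu-Cys and red for Cadict, a bar at the mean and whiskers of 1 SD (n = 3). Cyfip1 and Wasf2 lie below Ctrl with Cadict in both panels and Actr3 and Arpc2 above, while the red points of Nckap1, Abi1, Brk1, Rac1 and Actr2 lie above Ctrl in the upper panel and below it in the lower.

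Among the WAVE subunits, Cyfip1, which carries the Rac1 binding site of the complex, changed most. It had 324, 324 and 337 CPM in Ctrl, 291, 299 and 304 CPM in Cu-Cys, and 80.8, 79.2 and 91.2 CPM in Cadict. The Cadict libraries all lay far below both other groups, and the Cu-Cys libraries all lay below the Ctrl ones. Of all genes tested, 47.3% had Cadict libraries all below Ctrl and 29.9% had Cu-Cys libraries all below Ctrl. Cyfip1 fell by 1.97 on the log2 scale with Cadict (SE 0.06, adjusted p = 4.32e-14, edgeR), at percentile 11.9 of all genes tested, and by 2.92 on library totals. It was the only member called lower, and 11.9% of its 50-base stretches also occur in transcripts of other annotated genes.

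Wasf2 encodes the WAVE protein that activates Arp2/3 and is the main WAVE isoform in cells outside the nervous system. It stood at 209, 208 and 209 CPM in Ctrl, at 173, 175 and 175 CPM in Cu-Cys and at 141, 125 and 145 CPM in Cadict. The groups formed a descending staircase without overlap. Of all genes tested, 29.9% had Cu-Cys libraries all below Ctrl, and 45.4% had Cadict libraries all below Cu-Cys. The Cadict change was -0.61 on the log2 scale (SE 0.05, adjusted p = 2.95e-08, edgeR), which is short of a 2-fold fall on this scale, and -1.56 on library totals.

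Nckap1, the scaffold that pairs with Cyfip1, moved the other way on the TMM scale. Its values were 341, 344 and 346 CPM in Ctrl, 347, 353 and 330.0 CPM in Cu-Cys, and 672, 591 and 684 CPM in Cadict. All 3 Cadict libraries were higher than Ctrl, as in 40.3% of all genes tested. Cadict replicate 2 was the lowest of them, while Cu-Cys overlapped Ctrl. The log2 fold change with Cadict was 0.92 (SE 0.06, adjusted p = 3.42e-10, edgeR), against -0.04 on library totals (adjusted p = 0.596, edgeR) and -0.39 on TPM. DESeq2 size factors gave 1.04 (adjusted p = 8.37e-11, edgeR), which passes the 2-fold limit that the TMM value misses, so both the direction and the call of Nckap1 depended on the scale.

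Brk1, the smallest subunit, which stabilizes the complex, had 60.3, 67.7 and 60.3 CPM in Ctrl, 61.3, 68.5 and 69.5 CPM in Cu-Cys and 103, 139.7 and 103 CPM in Cadict. Cadict replicate 2 set the top value, and without it the log2 fold change went from 0.88 to 0.71. Abi1, the adaptor that ties the complex to kinases, had 86.0, 82.8 and 84.4 CPM in Ctrl, 90.3, 99.6 and 98.2 CPM in Cu-Cys and 118, 111 and 125 CPM in Cadict, a log2 fold change of 0.48 with Cadict (SE 0.06, adjusted p = 9.84e-07, edgeR). Both genes passed as higher on the TMM scale, and both turned negative on library totals, at -0.08 for Brk1 and -0.47 for Abi1.

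Shares and ratios within a library do not depend on how the libraries are scaled to each other. Of the summed TPM of the 5 WAVE subunits, Cyfip1 took 25.6%, 24.8% and 25.97% in the Ctrl libraries, 23.7%, 23.1% and 23.9% in Cu-Cys and 5.19%, 4.83% and 5.65% in Cadict. Wasf2 went from 13.1% ± 0.189 in Ctrl through 11.1% ± 0.214 in Cu-Cys to 6.83% ± 0.720 in Cadict (SD, n = 3 each). Larger shares fell to Nckap1, at 26.8% ± 0.342 in Ctrl and 40.6% ± 4.14 in Cadict, and to Brk1, at 25.98% ± 1.35 and 37.6% ± 5.95. Abi1 stayed at 8.74% ± 0.294 in Ctrl and 9.77% ± 0.764 in Cadict, with libraries that overlap. The summed TPM itself was 675 ± 8.81 in Ctrl, 599 ± 18.8 in Cu-Cys and 342 ± 26.4 in Cadict.

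The ratio of Nckap1 to Cyfip1, whose proteins form a dimer, makes the same point per library. It was 1.05, 1.06 and 1.04 in Ctrl, 1.20, 1.19 and 1.09 in Cu-Cys, and 8.27, 7.41 and 7.60 in Cadict (TPM over TPM). The ratio of Nckap1 to Wasf2 was 2.05 ± 0.00460 in Ctrl, 2.46 ± 0.106 in Cu-Cys and 5.94 ± 0.0245 in Cadict (SD, n = 3 each). The ratio of Rac1 to Cyfip1 rose from 2.42 ± 0.0163 to 14.3 ± 1.49. For the shares of Cyfip1, Wasf2, Nckap1 and Brk1, Cadict and Ctrl libraries were fully separate, which gives a two-sided exact permutation p of 0.1. This is the smallest p that 3 libraries against 3 allow, and it becomes 0.136 after adjustment over the 15 comparisons of WAVE shares.

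**Figure D2:**
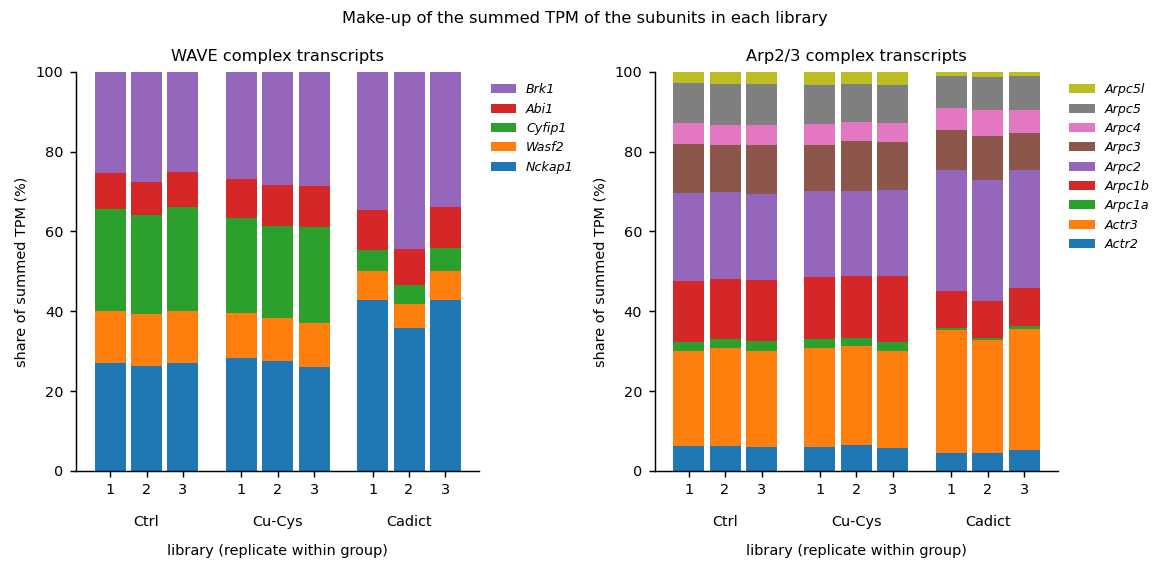
Share of each subunit in the summed TPM of the WAVE complex (left) and of the Arp2/3 complex (right), as stacked bars from 0 to 100% with 1 bar per library. The green Cyfip1 band of about 25% in Ctrl and Cu-Cys shrinks to about 5% in all 3 Cadict libraries, and on the right the bands of Actr3 and Arpc2 widen while Arpc1a and Arpc5l narrow.

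The paralogs of the WAVE subunits were near 0 or lower with Cadict. The WAVE list of 11 genes holds the paralogs of each subunit, and Cyfip2, which can replace Cyfip1, was at most 0.04 TPM in every library. Wasf3 and Nckap1l were at most 0.03 TPM. Wasf1, the brain-enriched WAVE protein, had 12.9, 11.0 and 11.4 TPM in Ctrl and 1.21, 1.49 and 1.72 TPM in Cadict, a log2 fold change of -1.72 on the TMM scale. Abi2, the close relative of Abi1, went from 18.5 ± 0.486 TPM in Ctrl to 4.05 ± 0.259 TPM in Cadict (SD, n = 3), a log2 fold change of -0.84 (SE 0.06, adjusted p = 2.78e-09, edgeR). Abi3 was at 3.49 ± 0.577 and 0.357 ± 0.130 TPM. Of the 8 genes of this list that were tested, 3 passed as higher with Cadict (Nckap1, Abi1 and Brk1) and 5 as lower. These are 37.5% and 62.5%, beside 40.6% and 47.1% of all genes tested, and the list median was -0.72. On library totals 0 passed as higher and 6 as lower (75.0%). Over all genes 18.1% passed as higher and 73.1% as lower on that scale, so the share of lower genes is near that of all genes.

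Rac1, the GTPase that switches the complex on, had 374, 378 and 384 CPM in Ctrl, 379.9, 362 and 370.3 CPM in Cu-Cys and 583, 589 and 546 CPM in Cadict. It passed as higher with Cadict on the TMM scale, at 0.60 (SE 0.05, adjusted p = 7.59e-09, edgeR), but it passed as lower on library totals, at -0.36, and its TPM was lower in all 3 Cadict libraries, at 266, 234 and 262 TPM against 412 to 419 TPM in Ctrl. The GENCODE M21 annotation gives 50.3% of its 50-base stretches to the neighbouring gene Daglb as well. Its expected counts were whole numbers in all 9 libraries and so show no reads split between genes. How the overlap bears on its values was not tested. The paralog Rac3 was low, at 2.61 ± 0.241 TPM in Ctrl and 0.220 ± 0.193 TPM in Cadict, and Rac2 was not analysed here.

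All 3 Arp2/3 members were called higher with Cadict on the TMM scale, although Actr2 turned on TPM. Arpc2, a core subunit that holds the complex to the mother filament, had 250.005, 248 and 252 CPM in Ctrl, 265, 274 and 276 CPM in Cu-Cys and 923, 951 and 873 CPM in Cadict. All Cadict values were more than 3 times the highest of the other groups. The log2 fold change was 1.87 (SE 0.05, adjusted p = 1.30e-14, edgeR) at percentile 91.9 of all genes, and it was 0.92 on library totals and 0.55 on TPM.

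Actr3, the gene of the actin-like subunit Arp3, had 535, 559 and 562 CPM in Ctrl, 604, 640.1 and 609 CPM in Cu-Cys and 1857, 1749.8 and 1776 CPM in Cadict. The change was 1.70 (SE 0.05, adjusted p = 4.09e-14, edgeR), 0.75 on library totals and 0.39 on TPM, and the Cadict libraries were the highest on each of these scales. In CPM, 40.3% of all genes tested had Cadict libraries all above Ctrl, and this share was not counted on the other scales. Of its 50-base stretches, 26.3% also occur in 2 other annotated genes, both known only by model names.

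Actr2, the gene of the partner subunit Arp2, followed at a smaller size, with 200.3, 203 and 206 CPM in Ctrl, 211, 239.7 and 214 CPM in Cu-Cys and 395, 403 and 439 CPM in Cadict. Its log2 fold change of 1.02 (SE 0.06) sits just inside the 2-fold limit, and it dropped to 0.97 without Cadict replicate 3. On library totals Actr2 was at 0.07 (adjusted p = 0.287, edgeR) and on TPM at -0.28. Arp2 and Arp3 stand together in the complex in equal number. The ratio of Actr3 to Actr2 transcripts went from 3.97 ± 0.0617 in Ctrl and 4.09 ± 0.174 in Cu-Cys to 6.35 ± 0.474 in Cadict (TPM over TPM, SD, n = 3 each).

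**Figure D3:**
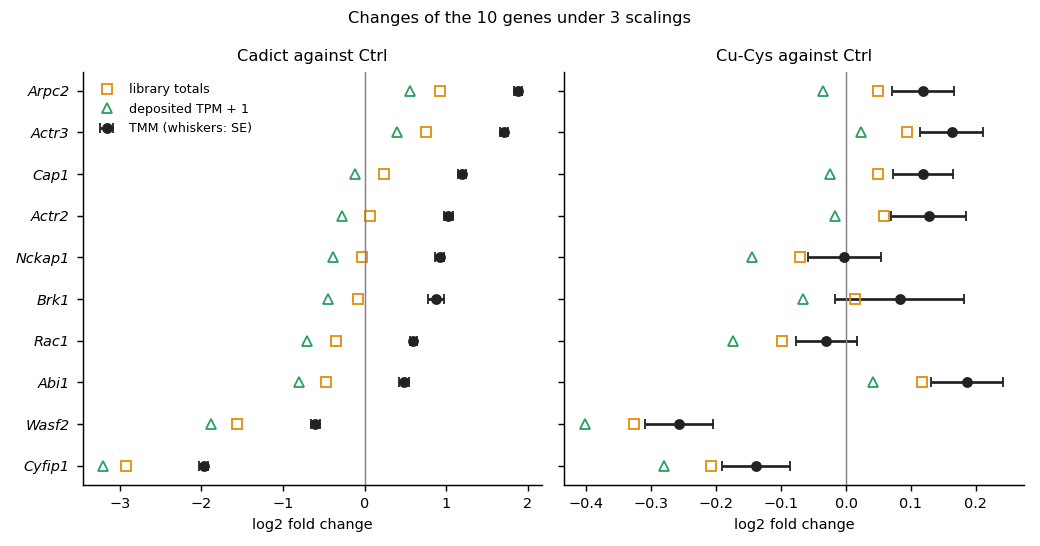
Log2 fold changes of the 10 genes in Cadict against Ctrl (left) and Cu-Cys against Ctrl (right), with the TMM value and its SE in black, library totals as orange squares and deposited TPM with a pseudocount of 1 as green triangles. The order of the genes with Cadict is the same on all 3 scales, from Cyfip1 to Arpc2, while the zero line falls at a different place in it, and the horizontal axis on the right covers a much narrower range.

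The other Arp2/3 subunits did not move as a block. Of the 9 tested genes of the 10 in the list, 7 passed as higher with Cadict and 1 as lower, with a median of 1.11. Over all genes tested, 40.6% passed as higher and 47.1% as lower. Of the 9, 6 were called higher, beside 20.7% of all genes. On library totals 5 passed as higher and 3 as lower, beside 18.1% and 73.1% of all genes. On TPM the counts were 3 and 6, beside 11.8% and 79.6%. Arpc4, a core subunit that pairs with Arpc2, rose by 1.67 (SE 0.06, adjusted p = 8.93e-13, edgeR) and stayed positive on library totals, at 0.72, with 10.03% of its 50-base stretches shared with the neighbour Ttll3. Arpc3 and Arpc5 passed at 1.14 and 1.11 on the TMM scale but were at -0.19 and -0.20 on TPM.

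The interchangeable subunits split by isoform. Arpc1b exceeded Arpc1a by 6.66 ± 0.174 in Ctrl, by 7.32 ± 0.267 in Cu-Cys and by 17.7 ± 2.20 in Cadict, as the ratio of their TPM (SD, n = 3 each). Arpc1a had 48.9, 46.7 and 50.7 TPM in Ctrl and 11.0, 10.9 and 14.8 TPM in Cadict. Arpc5 exceeded Arpc5l by 3.40 ± 0.0861 in Ctrl and 7.85 ± 1.09 in Cadict. The log2 fold change with Cadict on the TMM scale was -0.69 for Arpc1a and -0.05 for Arpc5l (adjusted p = 0.620, edgeR). For Arpc1b it was 0.71, and -0.25 on library totals. In shares of the summed Arp2/3 TPM, Arpc2 went from 21.8% ± 0.288 to 30.1% ± 0.560 and Actr3 from 24.2% ± 0.434 to 29.8% ± 1.27, while Arpc1b went from 15.3% ± 0.0713 to 9.41% ± 0.252 and Arpc1a from 2.29% ± 0.0688 to 0.538% ± 0.0759. None of these 4 shares overlapped between Ctrl and Cadict (exact permutation p = 0.1, and 0.129 after adjustment over the 27 comparisons of Arp2/3 shares). The same held for every other Arp2/3 subunit, so separation does not set these 4 apart. In CPM, 40.3% of all genes tested had Cadict libraries all above Ctrl and 47.3% all below. The summed TPM of the complex was 2127 ± 25.4 in Ctrl, 2117 ± 58.4 in Cu-Cys and 2269 ± 156 in Cadict, and these libraries overlap.

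Cap1, which strips cofilin and ADP-actin from old filaments and recharges the monomer, had 366, 369.6 and 369.7 CPM in Ctrl, 407, 398 and 395 CPM in Cu-Cys and 843, 811 and 871 CPM in Cadict. It was called higher with Cadict at 1.19 (SE 0.05, adjusted p = 1.17e-12, edgeR) and passed on library totals at 0.24, but on TPM it was at -0.12 and its libraries overlapped. Cap2 was not analysed here. Around Cap1, 14 of the 23 tested genes of the filament turnover list passed as higher and 6 as lower on the TMM scale. Over all genes tested, the shares were 40.6% and 47.1%. On library totals 7 passed as higher and 12 as lower, beside 18.1% and 73.1% of all genes. Dstn and Cfl1, the actin-severing proteins destrin and cofilin 1, rose by 1.89 (SE 0.05) and 1.71 (SE 0.06), and Capzb, a subunit of the protein that caps filament ends, by 1.85 (SE 0.05), each with an adjusted p of at most 1.64e-13 in edgeR and each also higher on library totals, at 0.93, 0.76 and 0.89. Annotated transcripts of other genes share 18.3% of the 50-base stretches of Cfl1.

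Ordered by TPM, the members in Ctrl ran from Actr3 at 514 ± 4.16 through Arpc2 at 465 ± 8.34, Rac1 at 416 ± 3.46 and Cap1 at 321 ± 3.84 to a group of Nckap1, Brk1 and Cyfip1 at 181 ± 2.003, 175 ± 10.7 and 172 ± 2.56, whose neighbours overlap. Actr2 at 129.6 ± 0.995, Wasf2 at 88.1 ± 1.16 and Abi1 at 58.9 ± 2.07 followed, each apart from the next (SD, n = 3 each). In Cadict, Arpc2 and Actr3 shared the top at 682 ± 38.4 and 678 ± 73.6 TPM, and Cyfip1 moved to the last place at 17.9 ± 2.79 TPM, where it overlapped Wasf2 at 23.5 ± 4.03 TPM. Cap1 overlapped Rac1, Nckap1 overlapped Brk1, and Brk1 overlapped Actr2, while Rac1 stood apart from Nckap1 and Actr2 from Abi1.

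Cu-Cys alone moved these genes little. Of the 10 members, 3 passed as higher than Ctrl (Abi1, Actr3 and Cap1) and 2 as lower (Wasf2 and Cyfip1) at an adjusted p of at most 0.05, beside 22.6% and 22.4% of all genes tested (45.0% in either direction). None was called at 2-fold, beside 0.167% of all genes called higher and 1.47% called lower (1.64% in all). The count of 0 calls was the same with DESeq2, and 7 members had an unadjusted p below 0.05 in edgeR. Wasf2 fell by 0.26 on the log2 scale (SE 0.05, adjusted p = 0.00111, edgeR), kept its direction on every scale tried, and passed without each of the 9 libraries in turn. Cyfip1 was at -0.14 (SE 0.05, adjusted p = 0.0438, edgeR), and leaving out any 1 of the Ctrl or Cu-Cys libraries, or Cadict replicate 1, moved it past the limit (adjusted p up to 0.155). The same held for Cap1 at 0.12 (SE 0.05, adjusted p = 0.0473, edgeR, up to 0.159). Abi1 at 0.19 (SE 0.06, adjusted p = 0.0144, edgeR) was lost without Ctrl replicate 2, Cu-Cys replicate 2 or Cu-Cys replicate 3 (adjusted p 0.0621, 0.0632 and 0.0622), and Actr3 at 0.16 (SE 0.05, adjusted p = 0.0129, edgeR) without Ctrl replicate 1 or Cu-Cys replicate 2 (0.0709 and 0.0571). On library totals Abi1, Actr3 and Cap1 did not pass (adjusted p 0.140, 0.137 and 0.449, edgeR). Nckap1 was at -0.00 (SE 0.06) and Rac1 at -0.03 (SE 0.05).

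Cadict and Cu-Cys differ in glucose oxidase and in the GE11 peptide with its PEG linker and DSPE anchor. The comparison of these groups shares its Cadict libraries with the comparison against Ctrl. Here 8 members passed as higher and 2 as lower, beside 40.3% and 45.6% of all genes tested (85.9% in either direction), and 3 were called higher (Arpc2, Actr3 and Cap1) and 1 lower (Cyfip1), beside 18.6% and 23.6% (42.2% in either direction). Nckap1, Abi1, Brk1 and Rac1 passed as higher at 0.92, 0.29, 0.79 and 0.63, and each was negative on TPM, at -0.24, -0.85, -0.39 and -0.54. Arpc2 was higher by 1.75 (SE 0.05), Actr3 by 1.54 (SE 0.05) and Cap1 by 1.07 (SE 0.05) on the log2 scale, each with an adjusted p of at most 4.98e-12 in edgeR. Cyfip1 fell by 1.83 (SE 0.06, adjusted p = 1.32e-13, edgeR) and Wasf2 by 0.35 (SE 0.05, adjusted p = 1.98e-05, edgeR). Actr2 passed at 0.90 without reaching 2-fold, and it was at -0.26 on TPM, where Cap1 was at -0.09.

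The genes that act on Rac, on Arp2/3 and on unbranched filaments were counted against all genes tested, of which 40.6% passed as higher with Cadict and 47.1% as lower on the TMM scale. Of 14 tested exchange factors that load Rac with GTP, 5 passed as higher and 7 as lower, shares near those of all genes on this scale. With library totals the counts were 1 and 13 (7.14% and 92.9%), beside 18.1% and 73.1% of all genes. Trio, a large exchange factor for Rac, rose by 1.72 (SE 0.08, adjusted p = 1.56e-11, edgeR), while Elmo2, a partner of the Dock exchange factors, fell by 1.31 (SE 0.08, adjusted p = 3.69e-10, edgeR) and Sos1 by 0.98 (SE 0.07). Of 9 tested genes that switch Rac off or hold it back, 1 passed as higher (Arhgap22, at 0.78, and at -0.18 on library totals, with 33.8% of its stretches shared with a model gene) and 6 as lower, among them Bcr at -1.53 (SE 0.07) and Racgap1 at -0.95 (SE 0.05). Of 6 tested GTPases and their inhibitors, 4 passed as higher and 2 as lower: Cdc42, the GTPase that drives N-WASP, rose by 1.22 (SE 0.05) on the TMM scale and was at -0.09 on TPM, and the inhibitors Arhgdib and Arhgdia passed at 0.80 and 0.67 but were at -0.15 and -0.29 on library totals.

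Of 11 tested activators of Arp2/3 other than WAVE, 5 passed as higher (45.5%) and 6 as lower (54.5%) on the TMM scale. These are again near the shares of 40.6% and 47.1% over all genes. With library totals the counts were 3 and 6 (27.3% and 54.5%), beside 18.1% and 73.1% of all genes. Washc2, the part of the WASH complex that anchors it to endosomes, rose by 2.21 (SE 0.05, adjusted p = 3.87e-15, edgeR) and was higher on every scale tried, at 1.26 on library totals and 0.90 on TPM. Washc3 and Cttn (cortactin, which stabilizes branches) passed at 1.27 and 1.11 and were at -0.06 and -0.20 on TPM. Of 6 tested genes that restrain Arp2/3 or remove branches, Gmfb passed as higher, at 1.40 (SE 0.05). Arpin, an inhibitor that competes with WAVE, fell by 0.67 (SE 0.06, adjusted p = 7.41e-08, edgeR), while Coro1b was at -0.07 (SE 0.06, adjusted p = 0.251, edgeR). Gmfb was at 0.44 on library totals and 0.10 on TPM, and Coro1b at -1.02 and -1.37.

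Among the proteins that build unbranched filaments, 5 of 10 tested formins and Ena/VASP genes passed as higher and 5 as lower on the TMM scale. These are also near the shares of 40.6% and 47.1% over all genes. With library totals the counts were 1 and 9, beside 18.1% and 73.1% of all genes. With TPM they were 0 and 9, beside 11.8% and 79.6%. The formins Fmnl1, Inf2 and Fmnl2 fell by 2.23 (SE 0.08), 2.21 (SE 0.07) and 1.52 (SE 0.08), each with an adjusted p of at most 2.02e-11 in edgeR and each lower on every scale tried. Of the actins themselves, Actg1 passed as higher at 1.13 (SE 0.06, adjusted p = 4.75e-11, edgeR) and was at -0.18 on TPM, and Actb was at -0.02 (SE 0.07, adjusted p = 0.803, edgeR) and at -0.97 on library totals. The ratio of Actg1 to Actb, read per library, was 2.16, 2.23 and 2.22 in Ctrl, 2.22, 2.31 and 2.29 in Cu-Cys and 4.99, 4.82 and 4.88 in Cadict (TPM over TPM). Annotated transcripts of other genes, Actb and muscle actins among them, share 37.4% of the 50-base stretches of Actg1, so its values are uncertain.

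**Figure D4:**
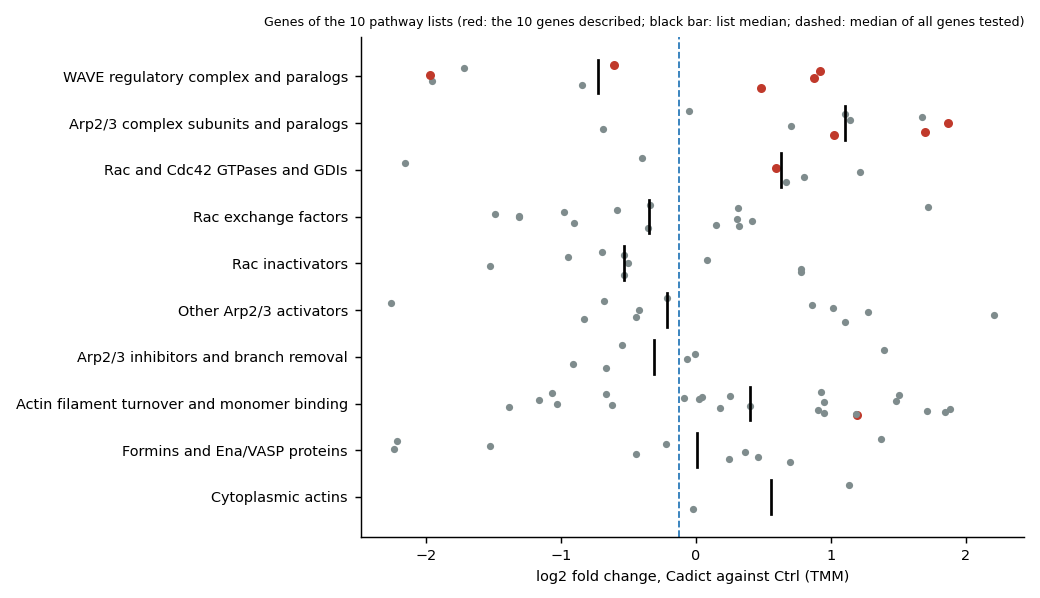
Log2 fold change in Cadict against Ctrl on the TMM scale for every tested gene of the 10 lists, with the 10 genes described here in red, the other list genes in grey, a black bar at each list's median and a dashed line at the median of all genes tested (-0.13). The Arp2/3 list has its median at 1.11 and the WAVE list at -0.72, and every list of more than 2 genes has genes on both sides of zero.

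The genes whose pattern over the 9 libraries lay closest to 3 of the members were found among 8551 tested genes of at least 10 CPM, by the root mean square difference of log2 CPM after each gene was centred on its Ctrl mean. For Nckap1 they were Tax1bp1 (0.0366), Arih1 (0.0442) and Wls (0.0455). For Wasf2 they were Ano1 (0.0463), Sh3pxd2a (0.0466) and Magt1 (0.0487), with log2 fold changes with Cadict of -0.57, -0.64 and -0.58 beside -0.61 for Wasf2. For Rac1 they were Ehbp1l1 (0.0120), Ywhah (0.0374) and Tcf25 (0.0374). These are descriptions over 9 points that share their libraries and scaling.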

How the data were processed

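Messenger RNA of MC38 cells was sequenced in 9 libraries, 3 per group. The authors deposited expected counts, FPKM and TPM per gene and library, and per the labels the submitters' processing notes name HISAT2 2.1.0, Bowtie2 2.3.4.3 and RSEM 1.3.1 and the build GRCm39. Of the 48 value columns, 9 per-library columns of scaled counts and 12 columns of group averages were not used. Columns headed CC and CCGE were taken as Cu-Cys and Cadict, the latter from its components. Labels and study text name different RNA kits and sequencers.

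Expected counts were rounded and fitted in R 4.3.3 with edgeR 4.0.16 (filterByExpr, TMM, quasi-likelihood test, no covariate), and p-values were adjusted by Benjamini-Hochberg over 11949 genes. TPM, FPKM and CPM served for levels, shares and alternatives (limma 3.58.1, pseudocounts of 1 and 0.1, and DESeq2 1.42.0). Shares were compared by exact permutation tests (SciPy 1.17.1). Named genes were the 10 members, from each list the 3 other genes of at least 10 CPM with the largest change in Cadict against Ctrl, and paralogs. Members and lists were chosen with earlier results of these data known. The procedure was tested on simulated data in which few genes changed, so this did not test the scaling of the Cadict libraries. Shared 50-base stretches came from GENCODE M21 on GRCm38, and promoters from RefSeq on GRCm38.p6. Equal replicate numbers did not deviate together (residual correlations from -0.209 to 0.160 over 8309 genes), so libraries were not paired.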

Additional observations from a re-analysis of the deposited data

How the results depend on the processing

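The scaling of the Cadict libraries decided most of what changed. Over all results and alternatives, 80 turned direction, 44 lost and 20 gained the threshold, 23 other values moved by more than their spread or 1.5 times, and 1252 did neither. With library totals, FPKM, or TPM with a pseudocount of 0.1 or 1, 2 members were called in Cadict against Ctrl and 2 against Cu-Cys, and 0 of these were higher. On these scales 389 to 828 of all 11949 genes were called higher and 4956 to 7154 lower against Ctrl, and 358 to 688 and 4499 to 6594 against Cu-Cys. DESeq2's test and its size factors each called 6 members against Ctrl and 5 against Cu-Cys. At an adjusted p of at most 0.05 alone, 10 members passed in each Cadict comparison and 5 in Cu-Cys against Ctrl. Shares from TMM-scaled CPM in place of TPM gave log2 ratios of Cadict to Ctrl of 0.81 for Nckap1 (0.60 from TPM), -0.71 for Wasf2 (-0.94), -2.07 for Cyfip1 (-2.28), 0.38 for Abi1 (0.16) and 0.79 for Brk1 (0.53).

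In Cadict against Ctrl, library totals turned the log2 fold changes of Nckap1 to -0.035, Abi1 to -0.47, Brk1 to -0.080, Rac1 to -0.36, Arhgdib to -0.15, Arhgdia to -0.29 and Arhgap22 to -0.18. FPKM turned them to -0.044, -0.46, -0.11, -0.37, -0.18, -0.31 and -0.12 in the same order. TPM with a pseudocount of 0.1 gave -0.39, -0.82, -0.46, -0.71, -0.52, -0.65 and -0.47 in that order, and with a pseudocount of 1 Abi1 was at -0.81 and Arhgap22 at -0.46, with the other 5 equal to 2 decimals. TPM with either pseudocount also turned Actr2 to -0.28, Cap1 to -0.12, Arpc3 to -0.19, Arpc5 to -0.20, Cdc42 to -0.089, Washc3 to -0.059 (-0.058 with 1), Cttn to -0.20 and Actg1 to -0.18. Coro1b turned to 0.046 and Actb to 0.096 with the DESeq2 test, and to 0.050 and 0.10 with DESeq2 size factors.

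In Cadict against Cu-Cys, library totals turned Abi1 to -0.59, Brk1 to -0.094 and Rac1 to -0.26, and FPKM to -0.58, -0.12 and -0.26. TPM with a pseudocount of 0.1 gave -0.87 for Abi1 (-0.85 with 1), and with either pseudocount -0.24 for Nckap1, -0.39 for Brk1, -0.54 for Rac1, -0.26 for Actr2 and -0.091 for Cap1. In Cu-Cys against Ctrl, TPM turned Brk1 to -0.066, Actr2 to -0.018, Arpc2 to -0.036 and Cap1 to -0.025, and Nckap1, near 0, was at 0.024 with DESeq2 size factors and 0.0071 without a filter on low counts. Leaving out 1 library gave -0.022 to 0.026 for Nckap1 in Cu-Cys against Ctrl and -0.10 to 0.026 for Actb in Cadict against Ctrl. Members called then numbered 4 to 5 in Cadict against Ctrl, 4 against Cu-Cys, and 0 between Cu-Cys and Ctrl.

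Equal replicate numbers did not pair the libraries. With the replicate number as a block, 5 members were called in Cadict against Ctrl, 4 against Cu-Cys and 0 between Cu-Cys and Ctrl, and Cap1 in Cu-Cys against Ctrl no longer passed an adjusted p of 0.05 (0.12, adjusted p = 0.0812, edgeR). The list counts on other scales and without each Cadict library were added after the data were seen. With 3 libraries per group no exact test of a share can fall below 0.1, and depth did not limit the members, each of which had over 50 CPM in every library on the TMM scale.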
